A study of Rattus norvegicus with 9 samples.

Results

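Glycolysis and hypoxia response genes were followed in cultured rat synovial fibroblasts, which line the joint cavity, under 3 conditions. The 40 genes were chosen by symbol from the 17298 genes of the expression table: 23 cover glucose uptake, the glycolytic steps, lactate handling and the entry of pyruvate into mitochondria, 7 encode the hypoxia-inducible factors (HIF) and the proteins that control them, and 10 are other known HIF target genes. All 40 were in the table and all had a mean of at least 1 FPKM (sequenced fragments corrected for transcript length and library size) over the 9 libraries, the level required for testing. The lowest mean was 3.78 FPKM, for Pfkfb4, so no member lay just outside that limit.

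Each condition had 3 libraries of wild-type cells: routine culture without IL-1β (control), culture with the inflammatory cytokine IL-1β, and IL-1β together with dermal fibroblasts placed in a transwell's upper chamber, a porous insert that separates both cell types (co-culture). The labels give no dose, duration or oxygen condition, and no co-culture without IL-1β was analysed here. Nothing in them tells if replicate libraries derive from different animals or dishes. The p-values therefore rest on library-to-library spread that could be purely technical. The design addresses how IL-1β changes synovial fibroblasts and which part of that change differs beside dermal fibroblasts.

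Glycolysis splits glucose into pyruvate in the cytosol, and the enzymes named by Ldha and Ldhb convert pyruvate to lactate and back, which leaves or enters the cell through the carriers named by Slc16a1 and Slc16a3. HIF is a pair of an oxygen-regulated alpha subunit, from Hif1a or Epas1, and a constant partner, from Arnt. When oxygen is present the prolyl hydroxylases of the Egln genes mark the alpha subunit, and the protein named by Vhl directs its breakdown. When oxygen is low the pair binds DNA at a short core motif and raises many glycolysis genes and its own hydroxylase gene Egln3. HIF activity is set largely at the protein level, which RNA does not show.

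The libraries of a group were close to each other, with rank correlations across genes of 0.9946 to 0.9959 within groups and 0.9584 to 0.9912 between groups. Of 12 fibroblast marker genes all 12 had a mean of at least 1 FPKM. Of 8 synovial lining markers 7 had, and Clic5 reached at most 0.67 FPKM. The lining markers summed to 780 to 799 FPKM in control, 1001 to 1029 with IL-1β and 860 to 879 in co-culture. Marker sums of several other cell types also moved with condition. The fibroblast markers summed to 22433 to 22894 FPKM in control, 19042 to 19704 with IL-1β and 20100 to 21012 in co-culture. Such a sum weighs abundant genes most, and single markers did not move alike. From control to IL-1β mean FPKM fell from 4902 to 2114 for Vim and from 3170 to 1587 for Col1a1. It fell from 758 to 669 for Thy1 and rose from 148 to 164 for Pdgfra. The 8 adipocyte markers summed to 826 to 871, 618 to 656 and 650 to 676 FPKM in the same order, and the 7 pericyte and smooth muscle markers in the table to 29.5 to 30.6, 10.7 to 12.5 and 25.9 to 27.5 FPKM. The endothelial sums were 12.7 to 15.4 FPKM over all libraries, and 1 of the 8 endothelial markers in the table had a mean of at least 1 FPKM. For the 4 keratinocyte markers in the table, of which 1 had such a mean, the sums were 1.22 to 1.65 FPKM in control. They were 1.12 to 1.52 with IL-1β and 1.71 to 2.22 in co-culture. The 13 macrophage and leukocyte markers in the table summed to 31.1 to 32.5 FPKM in control, 42.3 to 49.1 with IL-1β and 31.0 to 34.3 in co-culture. Of these 13, 5 had a mean of at least 1 FPKM, and the leukocyte gene Ptprc was at 0.13 FPKM or less in every library. The 8 chondrocyte markers in the table summed to 204 to 218, 26.5 to 29.0 and 85.7 to 88.4 FPKM in the same order. Whether such cells were present, and their part in the results, was not tested. In bulk RNA fewer cells of a type and less RNA per cell cannot be told apart.

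The start-site sequences of the genes set the frame for the HIF targets. For 37 of the 40 genes the 250 bases before 1 or more annotated starts were taken from RefSeq (rat build GRCr8), 42 windows in all, leaving Pgk1, Bnip3l and Ndrg1 without one. The HIF core motif was searched as ACGTG and GCGTG on both strands, where the palindrome CACGTG counts once on each strand. A match was present in 27 of the 42 windows (64.3%), in 26 of the 37 genes, against 12284 of all 33469 RefSeq windows of that length (36.7%). The genes were chosen in part as known HIF targets, so this share is a description of the choice. Below, 6 windows are shown because they carry the contrasts of the results: 2 collagen hydroxylase genes that moved in opposite directions, a lactate carrier that rose, the gene with the largest rise, and 2 textbook HIF targets that moved little. Each is the strand of the gene, read towards the start, with motif matches in capitals.
P4ha1: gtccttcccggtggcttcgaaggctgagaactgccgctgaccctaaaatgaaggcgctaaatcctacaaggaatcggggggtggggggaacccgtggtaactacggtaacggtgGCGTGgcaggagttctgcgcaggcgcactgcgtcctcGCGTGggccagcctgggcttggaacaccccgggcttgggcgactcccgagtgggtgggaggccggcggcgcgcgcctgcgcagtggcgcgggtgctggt
P4ha2: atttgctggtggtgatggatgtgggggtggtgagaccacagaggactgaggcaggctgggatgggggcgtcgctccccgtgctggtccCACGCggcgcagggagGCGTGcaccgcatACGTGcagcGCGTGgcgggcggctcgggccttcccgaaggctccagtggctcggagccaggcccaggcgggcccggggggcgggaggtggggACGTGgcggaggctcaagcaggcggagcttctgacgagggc
Slc16a1: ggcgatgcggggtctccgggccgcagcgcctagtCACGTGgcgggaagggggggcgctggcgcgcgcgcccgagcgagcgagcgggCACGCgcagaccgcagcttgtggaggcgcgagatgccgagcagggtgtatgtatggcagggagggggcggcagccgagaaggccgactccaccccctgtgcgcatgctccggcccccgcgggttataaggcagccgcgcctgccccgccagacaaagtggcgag
Egln3: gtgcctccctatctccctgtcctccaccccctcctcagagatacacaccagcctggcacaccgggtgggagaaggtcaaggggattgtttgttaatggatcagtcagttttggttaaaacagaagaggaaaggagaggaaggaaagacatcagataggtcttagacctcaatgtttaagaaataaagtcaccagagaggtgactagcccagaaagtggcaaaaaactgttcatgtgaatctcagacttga
Ldha: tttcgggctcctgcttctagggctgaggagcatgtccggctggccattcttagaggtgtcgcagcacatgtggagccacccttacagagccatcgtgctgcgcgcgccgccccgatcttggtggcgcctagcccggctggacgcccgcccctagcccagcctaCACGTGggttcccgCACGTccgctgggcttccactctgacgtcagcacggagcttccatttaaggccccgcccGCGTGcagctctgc
Bnip3: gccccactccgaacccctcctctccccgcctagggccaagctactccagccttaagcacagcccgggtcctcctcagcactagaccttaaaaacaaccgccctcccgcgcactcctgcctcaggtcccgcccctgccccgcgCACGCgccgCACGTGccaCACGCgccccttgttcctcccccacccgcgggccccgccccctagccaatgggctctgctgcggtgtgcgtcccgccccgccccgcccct

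In GRCr8 the windows are chr20:27844796-27845045 for P4ha1, chr10:38743644-38743893 for P4ha2, chr2:194812410-194812659 for Slc16a1 and chr1:106507842-106508091 for Ldha, all on the plus strand, and chr6:77411016-77411265 for Egln3 and chr1:203154963-203155212 for Bnip3 on the minus strand. They lie just upstream of the transcribed gene. P4ha2 held 5 matches, Ldha and Bnip3 4 each, Slc16a1 3, P4ha1 2 and Egln3 none. The deposited expression values carry no coordinates.

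Among the regulators of HIF, Egln3 and Epas1 rose most with IL-1β. Egln3, the hydroxylase gene that HIF itself induces, measured 1.58, 2.40 and 1.76 FPKM without IL-1β and 83.0, 79.9 and 79.2 FPKM with it, a 42.2-fold ratio of means and a log2 fold change of 4.82 ± 0.09 (SE; limma adjusted p = 2.0e-12). The lowest IL-1β library stood far above the highest control. On this scale, log2(FPKM + 1), its rise ranked 18 among the 11372 genes tested. Epas1, which encodes HIF-2 alpha, rose from 13.6, 12.5 and 11.5 FPKM to 50.3, 45.1 and 44.7 FPKM (log2 fold change 1.82 ± 0.06, adjusted p = 4.4e-10). Hif1a, which encodes HIF-1 alpha, had a higher FPKM than Epas1 throughout and rose less, from 141, 139 and 142 FPKM to 159, 169 and 173 FPKM (0.25 ± 0.03, adjusted p = 7.3e-05).

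The other regulators moved little. Vhl, the gene of the ubiquitin ligase subunit that recognises hydroxylated HIF, rose from 15.0 ± 0.53 FPKM (SD, n = 3 libraries, as for all such values) to 19.1 ± 0.56 FPKM by 0.33 ± 0.04 on the log2 scale (limma adjusted p = 8.1e-05). Arnt, Egln1 and Egln2 did not pass the threshold of an adjusted p under 0.05. Egln1, the main oxygen-sensing hydroxylase gene in most tissues, was at 31.6 ± 1.01 and 29.2 ± 1.60 FPKM, and Egln2 at 31.5 ± 1.80 and 34.5 ± 1.90 FPKM. Their adjusted p values were close to the threshold, 0.050 for Egln1 and 0.051 for Egln2, and Egln1 passed without IL-1β replicate 1 (0.016) and Egln2 without control replicate 2 (0.033) or IL-1β replicate 3 (0.020). Of the 7 genes 4 were higher and none lower. With testing limited to genes with a mean of at least 5 FPKM both passed, Egln1 as lower (0.047) and Egln2 as higher (0.046), which gave 5 higher and 1 lower. The background was high: 51.7% of all tested genes passed in this comparison, 20.5% higher and 31.2% lower. After median-of-ratios scaling 6 of the 7 were higher, Arnt (adjusted p = 0.028) and Egln2 (0.017) included, and after quantile normalization 5. Of all 40 genes, 4 passed with a log2 change of 1 or more (Egln3, Epas1, Adm and Slc16a1), against 4.61% of all tested genes, and the IL-1β and control libraries of 34 did not overlap, against 58.3%.

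**Figure D1:**
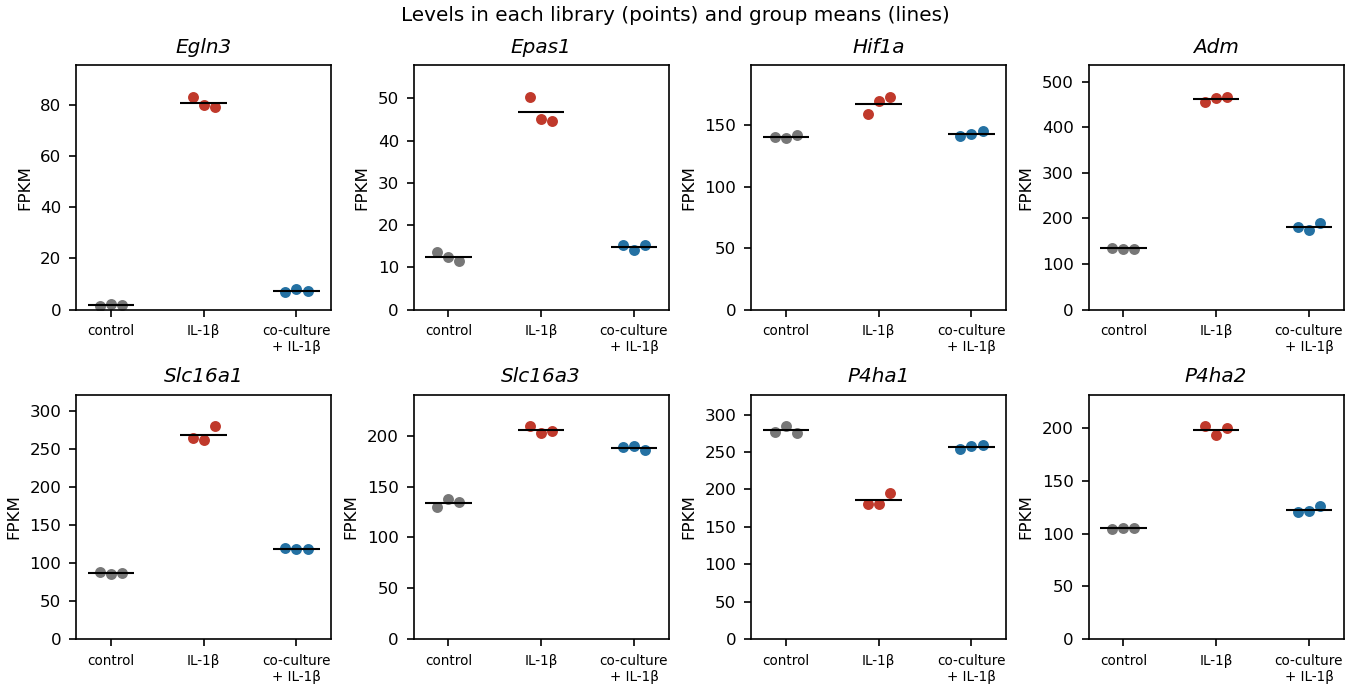
FPKM of 8 genes in each of the 9 libraries (points) with group means (lines), each panel with its own linear axis from 0. Egln3, Epas1, Adm and Slc16a1 are high in the 3 IL-1β libraries and fall most of the way back in co-culture, Slc16a3 stays high at 186 to 190 FPKM, and P4ha1 runs opposite to P4ha2.

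With co-culture the same regulators were lower than with IL-1β alone. Egln3 stood at 7.07, 8.03 and 7.23 FPKM, which on the log2 scale is -3.28 ± 0.09 relative to IL-1β (limma adjusted p = 1.1e-10), and remained 3.89-fold above control (1.54 ± 0.09, adjusted p = 3.6e-07). Epas1 stood at 15.2, 14.2 and 15.3 FPKM, lower than with IL-1β by -1.58 ± 0.06 (adjusted p = 2.7e-09). All 3 co-culture libraries of Egln3 and of Epas1 lay between the control and the IL-1β libraries, with no overlap. Of the change on the log2 scale, 32.0% was left for Egln3 and 12.8% for Epas1. Hif1a, at 143 ± 2.10 FPKM, and Vhl, at 15.9 ± 0.68 FPKM, were lower than with IL-1β and overlapped the control libraries. Egln1 alone of the 7 was higher than with IL-1β, at 33.1 ± 0.52 FPKM (0.18 ± 0.04, adjusted p = 0.0052), so that 4 were lower and 1 higher, against a background of 16.7% lower and 33.3% higher (50.0% in all). After either other scaling 6 were lower, with Arnt and Egln2 added. Of all 40 genes, 5 differed from IL-1β by at least 1 on the log2 scale, against 2.62% of all genes, and 34 had no overlap between the groups, against 56.7%.

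Because the co-culture, IL-1β and control comparisons share libraries, they are given side by side and not as independent evidence. Against control, 2 of the 7 regulators were higher in co-culture, Egln3 and Epas1, and none lower, where 20.3% of all genes passed, 12.4% higher and 7.91% lower. Egln3 was the 1 gene of the 40 that differed by at least 1 on the log2 scale, against 0.422% of all genes, and 24 had no overlap, against 37.8%. The Epas1 difference from control, 0.23 ± 0.06 (limma adjusted p = 0.023), lost its call without control replicate 2 (0.062), control replicate 3 (0.080), co-culture replicate 1 (0.074) or co-culture replicate 3 (0.071), and without the filter on low values (0.050).

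The make-up of the oxygen-sensing genes shifted within each library, a comparison that does not depend on scaling between libraries. These ratios, 12 in all, were chosen with the values known. Egln3 made up 2.45%, 3.61% and 2.75% of the summed FPKM of the 3 Egln genes in control, 55.3%, 56.2% and 56.1% with IL-1β and 9.75%, 11.1% and 9.99% in co-culture. By FPKM it was thus the minor hydroxylase transcript in control and the highest with IL-1β. This order between genes is less certain than the shift between conditions, because a mouse genome build is named for these data. The ratio of Epas1 to Hif1a was 0.0894 ± 0.0079 in control, 0.281 ± 0.031 with IL-1β and 0.104 ± 0.0043 in co-culture. No 2 groups overlapped in either measure, and each difference had an exact permutation p of 0.1 (two-sided), the smallest that 3 against 3 libraries allow and not adjusted over the 12 measures.

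**Figure D2:**
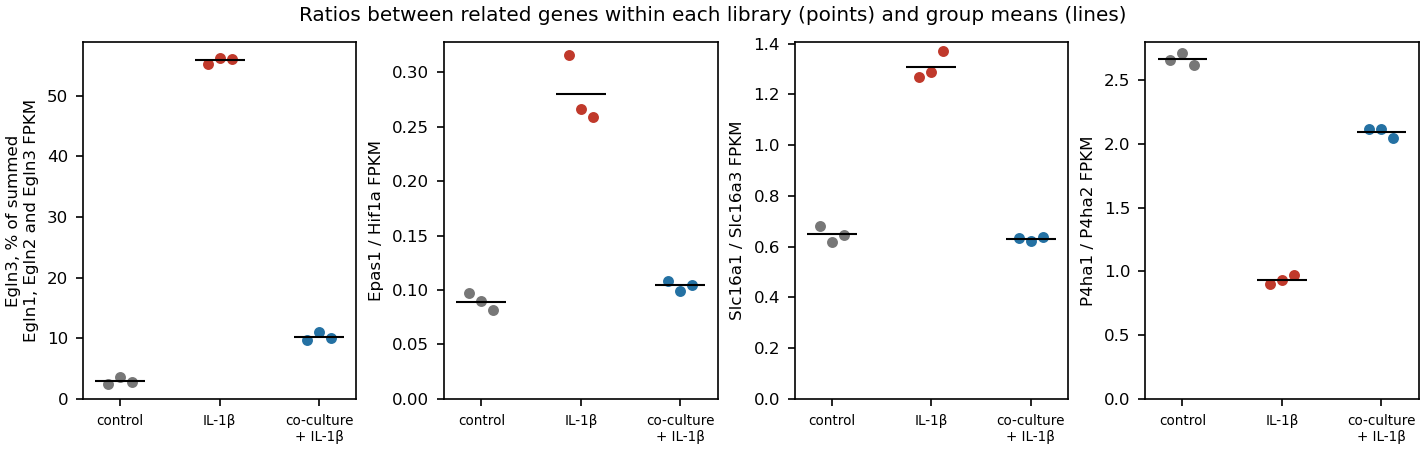
Ratios between related genes computed inside each library (points) with group means (lines): the Egln3 percentage of summed Egln FPKM, Epas1 to Hif1a, Slc16a1 to Slc16a3 and P4ha1 to P4ha2, all on linear axes from 0. The first 3 measures peak with IL-1β and P4ha1 to P4ha2 is lowest there, and only for Slc16a1 to Slc16a3 do control and co-culture overlap.

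The other HIF target genes did not move as 1 group. With IL-1β 5 of the 10 were higher and 4 lower, and their median log2 change was 0.14 against -0.04 over all tested genes, of which 20.5% were higher and 31.2% lower. Adm, which encodes the vasodilator peptide adrenomedullin, rose from 136, 133 and 134 FPKM to 455, 464 and 466 FPKM (log2 fold change 1.77 ± 0.03, limma adjusted p = 1.2e-12). The libraries of each group lay within a few percent of each other, and the groups were far apart. Bnip3l, a mitophagy receptor gene, rose from 83.0 ± 1.77 to 116 ± 4.70 FPKM (0.48 ± 0.04, adjusted p = 1.3e-06), whereas its relative Bnip3, at 303 ± 7.15 and 320 ± 21.1 FPKM, did not pass (adjusted p = 0.16, but 0.0077 without IL-1β replicate 1 and 0.029 after median-of-ratios scaling). Mxi1, a MYC antagonist gene, rose by 0.27 ± 0.04 and Kdm3a, a histone demethylase gene, by 0.20 ± 0.04. Ndrg1, a stress-responsive gene, fell from 46.2 ± 1.42 to 33.9 ± 0.84 FPKM (-0.43 ± 0.03, adjusted p = 7.0e-07), and Ankrd37 fell from 7.34 ± 0.47 to 5.54 ± 0.39 FPKM. Higd1a, a mitochondrial respiration factor gene, was slightly lower, at 99.4 ± 2.18 and 92.9 ± 2.64 FPKM (adjusted p = 0.043). That call was lost without any of 5 libraries: control replicate 1 (adjusted p = 0.075), 2 (0.057) or 3 (0.136), or IL-1β replicate 2 (0.059) or 3 (0.145), and also after median-of-ratios scaling (0.27) and without the filter on low values (0.064).

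The 2 catalytic subunit genes of collagen prolyl 4-hydroxylase, the enzyme that makes collagen stable, went in opposite directions. P4ha1 fell with IL-1β from 277, 284 and 276 FPKM to 181, 181 and 195 FPKM (log2 fold change -0.59 ± 0.03, limma adjusted p = 3.4e-08). P4ha2 rose from 104, 105 and 106 FPKM to 202, 194 and 200 FPKM (0.91 ± 0.03, adjusted p = 2.6e-10). P4ha1 thus had the higher FPKM in every control library and P4ha2 a slightly higher one in every IL-1β library. The P4ha1 to P4ha2 ratios were 2.66 ± 0.047 and 0.936 ± 0.038. Which of these 2 transcripts leads is uncertain, because the named genome build is a mouse build and may lose rat reads unevenly between genes. The shift of the ratio between conditions depends less on this. Both windows shown above hold HIF core matches, 2 in P4ha1 and 5 in P4ha2. In co-culture the ratio was 2.10 ± 0.042, with P4ha1 at 255, 258 and 259 FPKM and P4ha2 at 120, 122 and 127 FPKM. The control and co-culture ratios did not overlap.

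In co-culture 4 of the 10 targets were higher than with IL-1β alone and 5 lower, against 33.3% and 16.7% of all tested genes. The 9 that had passed with IL-1β were all called in the opposite direction here, as were 40.2% of all genes, and both comparisons share the IL-1β libraries. Adm stood at 181, 174 and 189 FPKM, lower than with IL-1β by -1.34 ± 0.03 on the log2 scale (limma adjusted p = 3.2e-11). Bnip3l was at 87.2 ± 3.92 FPKM and overlapped the control libraries. Ndrg1 was at 44.4 ± 0.57 FPKM, up by 0.38 ± 0.03 from IL-1β (adjusted p = 3.3e-06). The turn of Ankrd37 (0.28 ± 0.09, adjusted p = 0.020) was not held without IL-1β replicate 2 (0.051) or 3 (0.074) or co-culture replicate 2 (0.083) or 3 (0.053), nor after median-of-ratios scaling (0.062). That of Mxi1 (-0.12 ± 0.04, adjusted p = 0.030) was not held without IL-1β replicate 1 (0.054), 2 (0.076) or 3 (0.060) or co-culture replicate 1 (0.10) or 3 (0.063).

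Against control, 3 targets were higher in co-culture and 1 lower, against 12.4% and 7.91% of all tested genes. Adm was still 1.35-fold above control (0.43 ± 0.03, limma adjusted p = 2.6e-06) and P4ha2 1.17-fold (0.23 ± 0.03, adjusted p = 0.00027), and both calls held under all 16 other settings. The call of Mxi1 (0.14 ± 0.04, adjusted p = 0.032) was lost without control replicate 1 (0.061) or 3 (0.11) or co-culture replicate 2 (0.10) or 3 (0.074), and also after median-of-ratios scaling (0.063), quantile normalization (0.063) and in the fit of these 2 groups only (0.054). That of P4ha1 (-0.12 ± 0.03, adjusted p = 0.028), the 1 lower gene, was lost without control replicate 1 (0.063) or 2 (0.098) or co-culture replicate 1 (0.082), 2 (0.069) or 3 (0.055), which left 0 lower. Bnip3, at 317 ± 2.80 FPKM, passed in none of the 3 comparisons.

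**Figure D3:**
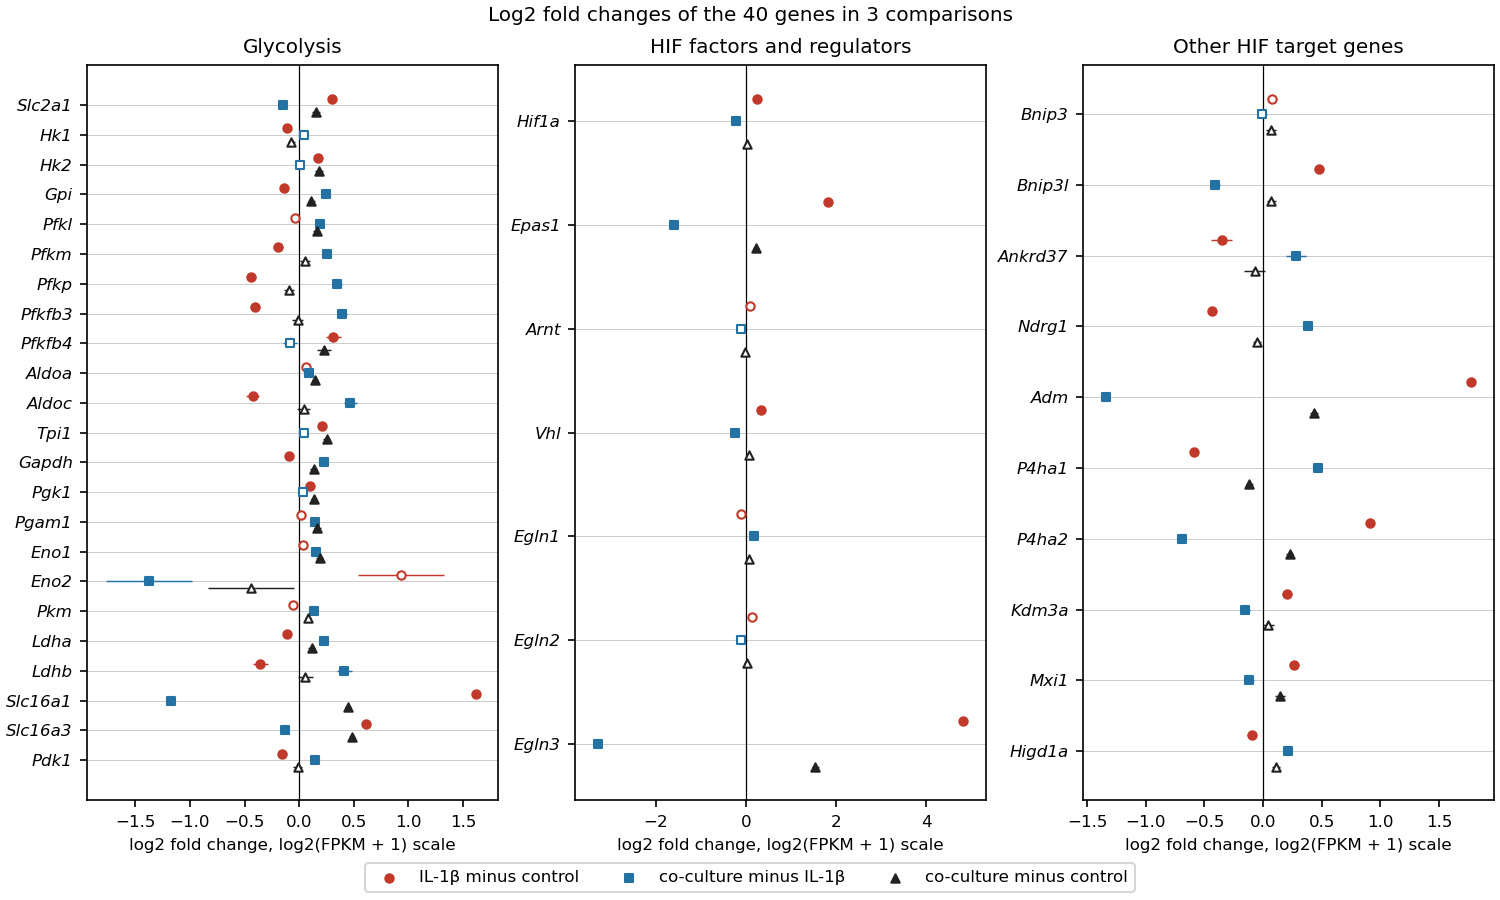
Log2 fold changes on the log2(FPKM + 1) scale of all 40 genes in the 3 comparisons, with standard errors as bars. Filled symbols passed an adjusted p of 0.05 and open symbols did not, and the 3 panels have different horizontal ranges. Most glycolysis genes lie within 0.5 of 0. With IL-1β the carriers Slc16a1 and Slc16a3 lie outside it, as do Egln3, Epas1, Adm, P4ha1, P4ha2 and Eno2, which did not pass.

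Among the glycolysis genes called with IL-1β the lactate carriers had the largest changes. Eno2, described further on, had a larger estimate than Slc16a3 but did not pass. Slc16a1, the gene of monocarboxylate transporter MCT1, which carries lactate and pyruvate in either direction, rose with IL-1β from 88.8, 85.3 and 87.3 FPKM to 265, 262 and 280 FPKM (log2 fold change 1.62 ± 0.03, limma adjusted p = 2.4e-12). Slc16a3, the gene of MCT4, a lactate exporter typical of glycolytic cells, rose from 130, 138 and 135 FPKM to 210, 203 and 205 FPKM (0.61 ± 0.03, adjusted p = 8.3e-09). Every IL-1β library exceeded every control library for both. These 2 carriers then parted in co-culture. Slc16a1 was at 120, 118 and 119 FPKM, lower than with IL-1β by -1.17 ± 0.03 (adjusted p = 8.2e-11), with 27.6% of its log2 change left. Slc16a3 was at 189, 190 and 186 FPKM, lower by only -0.13 ± 0.03 (adjusted p = 0.0037), with 79.2% left.

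The ratio of Slc16a1 to Slc16a3 was 0.683, 0.620 and 0.646 in the control libraries, 1.27, 1.29 and 1.37 with IL-1β and 0.634, 0.624 and 0.639 in co-culture. Control and co-culture overlapped (exact permutation p = 0.5, two-sided), while both genes were higher in co-culture than in control, Slc16a1 by 0.45 ± 0.03 (limma adjusted p = 1.7e-06) and Slc16a3 by 0.49 ± 0.03 (adjusted p = 4.9e-07). Slc2a1, the gene of the glucose transporter GLUT1, followed a smaller course: 65.4 ± 2.26 FPKM in control, 80.6 ± 2.21 with IL-1β (0.30 ± 0.04, adjusted p = 3.2e-05) and 72.8 ± 2.19 in co-culture. Its difference between co-culture and control (adjusted p = 0.012) was lost without control replicate 1 (0.057) or co-culture replicate 1 (0.055).

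The enzymes of the pathway were abundant and moved by small amounts. Gapdh, the glyceraldehyde phosphate dehydrogenase gene, had the fifth highest mean of the 17298 genes, at 4815 ± 21.0 FPKM in control, 4510 ± 87.4 with IL-1β and 5287 ± 139 in co-culture. Pkm, the pyruvate kinase gene, was at 2045 ± 34.3, 1967 ± 11.1 and 2161 ± 41.9 FPKM, and Ldha at 2025 ± 32.0, 1869 ± 44.4 and 2190 ± 30.2 FPKM, in the same order. For these 3 genes the co-culture libraries were the highest of the 9, without overlap. Between co-culture and control 37.8% of all tested genes had no overlap, and Pkm did not pass there (0.08 ± 0.03, limma adjusted p = 0.073). The Gapdh difference between IL-1β and control (-0.09 ± 0.03, limma adjusted p = 0.024) was lost without control replicate 1 (0.062) or 2 (0.076) or IL-1β replicate 1 (0.052) or 3 (0.082), and after median-of-ratios scaling (0.22). Many of these enzymes have near-identical processed copies in mammalian genomes, so their reads may be split or shared, and their levels are uncertain to that extent.

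With IL-1β 7 of the 23 glycolysis genes were higher and 10 lower, against 20.5% and 31.2% of all tested genes, and the median log2 fold change was -0.04, as it was over all genes. The higher ones were the 3 membrane carriers with Hk2, a hexokinase gene, Pfkfb4, a fructose 2,6-bisphosphate regulator gene, and Tpi1 and Pgk1, a triose phosphate isomerase and a phosphoglycerate kinase gene. Tpi1 went from 873, 887 and 880 FPKM to 1018, 1015 and 1017 FPKM (0.21 ± 0.03, limma adjusted p = 0.00014), a change of 1.16-fold seen in each library. The rise of Pgk1 (0.10 ± 0.03, adjusted p = 0.013) was not held without IL-1β replicate 3 (0.054) and turned to -0.01 after quantile normalization. The call for Tpi1 was also lost after quantile normalization (adjusted p = 0.069).

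The lower ones included a minor isoform at several steps, though not at every step. Pfkp, the platelet-type phosphofructokinase gene, fell from 34.2, 37.3 and 36.8 FPKM to 27.5, 25.2 and 26.3 FPKM (-0.44 ± 0.05, limma adjusted p = 7.4e-06). Aldoc, the brain-type aldolase gene, fell from 21.6, 21.2 and 20.6 FPKM to 17.1, 15.4 and 14.0 FPKM (-0.43 ± 0.06, adjusted p = 8.3e-05). Ldhb, the heart-type lactate dehydrogenase gene, fell from 11.4, 12.2 and 11.6 FPKM to 9.81, 8.48 and 8.60 FPKM (-0.36 ± 0.07, adjusted p = 0.0014). In each case no IL-1β library reached a control library. At these steps the major forms moved less. Pfkl and Aldoa did not pass, although Aldoa did as higher after median-of-ratios scaling (0.11 on the log2 scale, adjusted p = 0.0056). Ldha fell by 0.12 on the log2 scale (adjusted p = 0.0068), a call lost after median-of-ratios scaling (0.054). Hexokinase went the other way. Hk1, with the higher FPKM, fell from 71.1 ± 1.78 to 65.7 ± 1.70 FPKM (-0.11 ± 0.03, adjusted p = 0.011). Hk2 rose from 25.2 ± 0.23 to 28.6 ± 0.97 FPKM. Eno2, a minor enolase form described further on, had its highest mean with IL-1β but did not pass. Pfkfb3, which makes the activator of phosphofructokinase, fell from 20.3 ± 0.69 to 15.1 ± 0.90 FPKM, while Pfkfb4 rose from 2.83, 3.45 and 3.33 FPKM to 4.05, 4.35 and 4.25 FPKM. Pdk1, a kinase that closes the entry of pyruvate into mitochondria and a known HIF target, fell by 0.16 ± 0.04 on the log2 scale (adjusted p = 0.0072).

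The count of the glycolysis genes depended on the scaling between libraries. It was 9 higher and 7 lower after median-of-ratios scaling and 5 higher and 12 lower after quantile normalization. For all 40 genes it was 16 and 14, 21 and 10, and 15 and 16 with the deposited values, median-of-ratios scaling and quantile normalization, and for all 11372 genes 2330 and 3544, 2887 and 2877, and 2463 and 3448. For the HIF targets it was 5 and 4, 6 and 3, and 5 and 4.

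**Figure D4:**
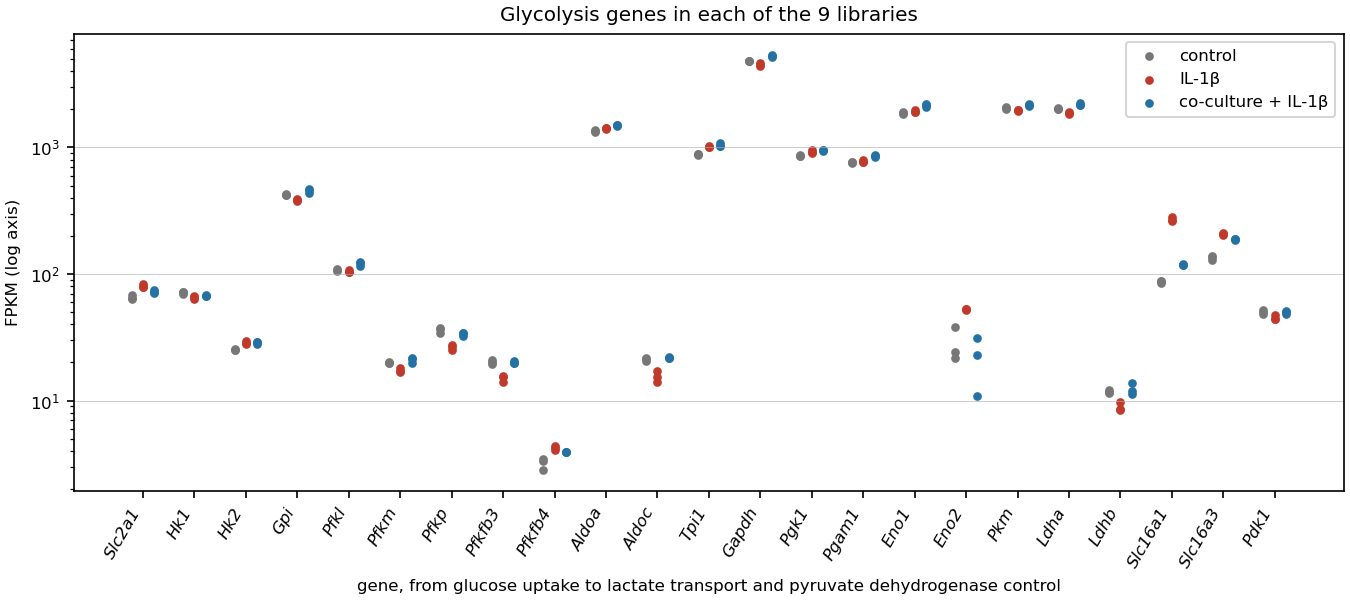
FPKM on a log axis of the 23 glycolysis genes in each of the 9 libraries, ordered from uptake to lactate transport, with colours for the 3 conditions. Levels span from 2.83 FPKM for Pfkfb4 to 5419 FPKM for Gapdh, the libraries of a group lie close together except for Eno2, and Slc16a1 shows a wide separation of the IL-1β libraries.

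Of the 23 glycolysis genes 14 had their highest mean in co-culture, 5 with IL-1β (Slc2a1, Slc16a1, Slc16a3, Pfkfb4 and Eno2) and 4 in control (Hk1, Pfkp, Pfkfb3 and Pdk1). The share of all tested genes with their highest mean in co-culture was not determined, so these counts have no background beside them. Compared with IL-1β alone 14 of the 23 genes were higher and 4 lower, and compared with control 14 were higher and none lower, where the background was 33.3% and 12.4% higher. The median log2 fold changes were 0.14 and 0.13, against 0.06 and 0.02 over all tested genes. Summed over the 23 genes, a sum made up largely of the most abundant enzymes such as Gapdh, the level was 15672 to 15808 FPKM in control, 15652 to 15788 with IL-1β and 17040 to 17707 in co-culture. As a share of all FPKM in the library this was 2.25% to 2.32%, 2.12% to 2.20% and 2.41% to 2.47%, with no overlap. The differences of single enzymes were small: Gapdh was 1.10-fold above control (0.13 ± 0.03, limma adjusted p = 0.010), Tpi1 1.19-fold (0.25 ± 0.03, adjusted p = 0.00015), and Pfkl, the liver-type phosphofructokinase gene, 1.12-fold (0.16 ± 0.03, adjusted p = 0.0065).

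Of the genes higher in co-culture than in control, 7 were the carriers and enzymes already higher with IL-1β, 3 had been lower with it (Gpi, Gapdh and Ldha) and 4 had not passed (Pfkl, Aldoa, Pgam1 and Eno1). Pfkp, Pfkfb3, Aldoc, Ldhb, Pfkm and Pdk1 had fallen with IL-1β, were higher in co-culture than with IL-1β, and did not pass against control. Aldoc for instance was at 21.6, 22.2 and 21.5 FPKM in co-culture, up from IL-1β by 0.47 ± 0.06 (limma adjusted p = 4.9e-05), and Ldhb at 11.2 to 13.7 FPKM. Each overlapped its control libraries. The Aldoa difference between co-culture and IL-1β (0.09, adjusted p = 0.021) was lost without IL-1β replicate 2 (0.073) or co-culture replicate 2 (0.055) and after median-of-ratios scaling (0.55) or quantile normalization (0.065). In all, 12 of the 23 genes were called in opposite directions with IL-1β and with co-culture against IL-1β, and 25 of the 40, where 40.2% of all genes were, and the IL-1β libraries enter these 2 comparisons with opposite signs.

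The number against control was 13 higher and none lower after median-of-ratios scaling but 8 higher and 1 lower, Hk1, after quantile normalization. The cause of these differences was not tested. Gapdh, Tpi1, Pfkl, Hk2, Slc16a1 and Slc16a3 held their call against control under all 16 settings. Those of Gpi, Ldha and Pfkfb4 were lost on leaving out single libraries, and some under other settings: Gpi (0.035 with all 9) without control replicate 1 (0.11), 2 (0.099) or 3 (0.051) or co-culture replicate 1 (0.10) or 2 (0.13), after either other scaling (0.073 and 0.41) and without the filter on low values (0.051), Ldha (0.021) without control replicate 2 (0.084) or 3 (0.052) or co-culture replicate 1 (0.057) and after quantile normalization (0.23), and Pfkfb4 (0.029) without control replicate 1 (0.11) or co-culture replicate 1 (0.075), 2 (0.074) or 3 (0.070).

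Eno2, the neuron-type enolase gene, had the highest SD relative to its group mean of the 40 genes, 46.9% in co-culture and 31.6% in control, but 0.98% with IL-1β. It was at 21.8, 38.2 and 24.3 FPKM in control, 53.3, 53.2 and 52.4 FPKM with IL-1β and 10.8, 31.0 and 22.7 FPKM in co-culture. The IL-1β libraries agreed closely and lay above all others. The rise with IL-1β did not pass (0.93 ± 0.39, limma adjusted p = 0.092), but did in the fit of these 2 groups only (0.025) and without co-culture replicate 1 (0.020), which enters through the shared spread. The difference between co-culture and IL-1β passed (-1.38 ± 0.39, adjusted p = 0.027), but not without IL-1β replicate 1 (0.068), 2 (0.069) or 3 (0.066) or co-culture replicate 3 (0.053), nor in the fit of those 2 groups only (0.055). Eno1, the common enolase gene, was at 1882 ± 36.8, 1932 ± 53.6 and 2147 ± 51.4 FPKM.

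Further genes of the pathways, from lists that hold none of the 40, are given for comparison. Of 24 tested genes of glucose and pyruvate metabolism 7 were higher and 5 lower with IL-1β. These were 29.2% and 20.8%, against 20.5% and 31.2% of all tested genes. In co-culture against IL-1β 6 were higher and 5 lower, where 33.3% and 16.7% of all tested genes were. In co-culture against control 4 were higher and 3 lower (16.7% and 12.5%, against 12.4% and 7.91% of all). The largest change with IL-1β in this list was that of Eno3, the muscle-type enolase gene, which fell from 24.3, 23.1 and 23.7 FPKM to 5.98, 6.73 and 5.94 FPKM (-1.78 ± 0.06, limma adjusted p = 1.8e-10) and stood at 22.1, 20.2 and 19.7 FPKM in co-culture. Its libraries with IL-1β were the lowest of the 9, where those of Eno2 were the highest. Slc2a6, a glucose transporter family gene, rose from 4.07 ± 0.37 to 7.53 ± 0.79 FPKM and was at 4.31 ± 0.24 FPKM in co-culture. Slc16a7, a further Slc16a family gene at a low level, rose from 3.16 ± 0.28 to 4.90 ± 0.25 FPKM (0.51 ± 0.08, limma adjusted p = 0.00023). It was at 3.12 ± 0.40 FPKM in co-culture. Of the 8 pentose phosphate genes 1 was higher with IL-1β, H6pd, and 3 lower (12.5% and 37.5%, against 20.5% and 31.2% of all tested genes). Among the lower was Pgd, a dehydrogenase of that pathway, at -0.18 ± 0.03 on the log2 scale.

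Of 37 tested further HIF pathway genes 10 were higher and 12 lower with IL-1β (median log2 change -0.03), which is 27.0% and 32.4% and near the 20.5% and 31.2% of all tested genes. In co-culture against IL-1β 12 were higher and 9 lower (32.4% and 24.3%, against 33.3% and 16.7% of all). Against control the numbers were 8 and 4 (21.6% and 10.8%, against 12.4% and 7.91% of all). Angptl4, a lipase inhibitor gene, rose from 17.7, 19.7 and 17.0 FPKM to 138, 136 and 139 FPKM (2.86 ± 0.05, limma adjusted p = 3.9e-13). It was at 49.3, 48.5 and 49.1 FPKM in co-culture, between the groups and still 1.39 ± 0.05 above control on the log2 scale. Cited2, which competes with HIF for its coactivator, rose by 1.33 ± 0.04, and Vegfa, the vascular growth factor gene, from 43.8 ± 0.75 to 66.1 ± 2.44 FPKM. In contrast Bhlhe40 and Bhlhe41, repressor genes induced by HIF in many cells, fell by 0.68 ± 0.04 and 1.38 ± 0.07.

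The number of HIF core matches before the start did not follow the size of the IL-1β change. The 3 genes with the largest changes, Egln3, Epas1 and Adm, had none in the window, while Ldha, Bnip3, Ankrd37 and Slc2a1 had 4 each and P4ha2 5. The 11 genes without a match had a median absolute log2 fold change of 0.31 (0.06 to 4.82) and the 26 genes with at least 1 a median of 0.20 (0.02 to 1.62), given as a description of these genes. A search for the NF-kB consensus motif on both strands found it in 6 of the 42 windows (14.3%), against 6.33% of all windows, and not in those of Egln3, Epas1, Adm or Slc16a1. No match says only that these letters are not in these 250 bases.

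**Figure D5:**
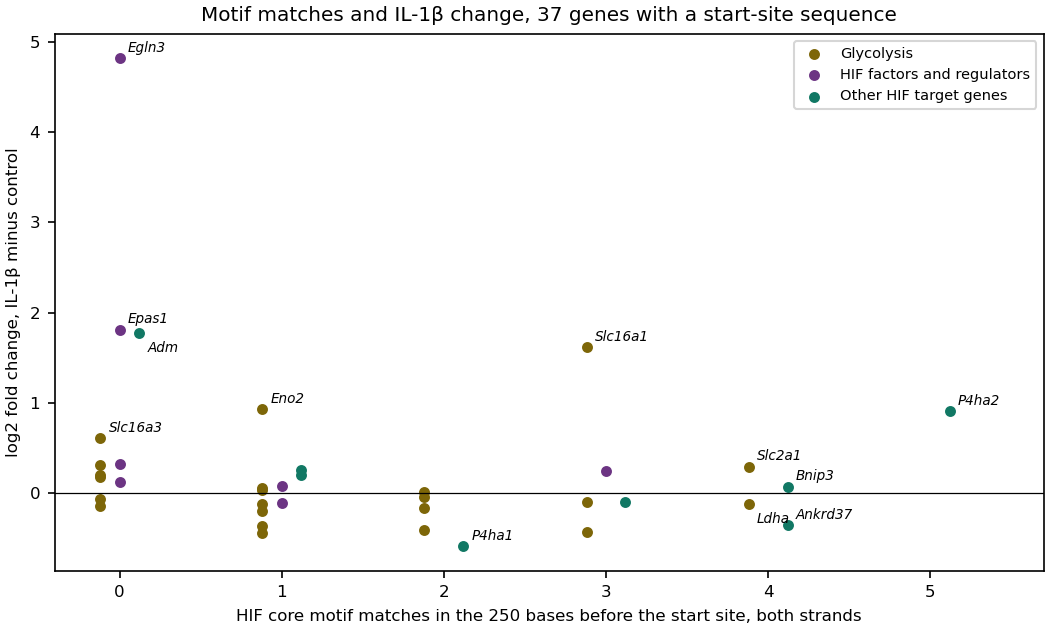
HIF core matches in the 250 bases before the start (horizontal, the highest count where a gene has several starts, with small sideways shifts by class) against the log2 fold change with IL-1β (vertical) for 37 genes. Egln3, Epas1 and Adm stand at 0 matches with the highest values, and genes with 4 matches lie between -0.35 and 0.30.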

How the data were processed

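The 9 deposited columns are FPKM, per the file headers, with 2 decimals and 17298 genes. The submitters' processing notes name the genome build GRCm38, a mouse build, whereas all 40 gene identifiers here, and 93.4% of all, were found in the rat RefSeq table of GRCr8. The tools used for alignment and quantification were not given in the sources used here. A mouse reference would lose rat reads unevenly, which makes comparing 1 gene across libraries safer than comparing genes. FPKM is relative within a library, and sums were 679774 to 741810. The depth is unknown: among 3676 genes at 0 in some libraries the smallest other value had a median of 0.04 FPKM, where rounding alone amounts to 12.5%, so whole reads were not recovered.

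Groups follow the sample titles. Values were taken as log2(FPKM + 1) for the 11372 genes whose mean FPKM reached 1. The limma package (3.58.1, R 4.3.3) fitted a mean for each group across the 9 libraries, with trended, robust moderation. P-values are two-sided and Benjamini-Hochberg adjusted over all genes tested, with a threshold of 0.05. On simulated data for the IL-1β comparison (11372 genes) the fit recovered 61.8% of changes of 0.25, 98.5% of 0.5 and 98.5% of 1 on the log2 scale, with 3 false calls. Only 68, 66 and 66 genes were changed by these amounts, all above the lowest levels and with independent normal noise. In the data 51.7% of all tested genes passed, so these rates and the number of false calls need not carry over. Fold ratios are ratios of mean FPKM. The alternatives were another pseudocount, 2 filters, 2 scalings, fits of 2 groups only, a replicate block and leaving out each library. Values are named by rule: per class and comparison the 4 largest changes past the threshold, the 3 most abundant members, and members called in opposite directions, plus up to 4 genes per further list. Genes named beyond it were chosen after their values were seen. The members, lists and ratios were chosen with earlier results of these data known. Python 3.11.15 was used for tables and motif searches.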

Additional observations from a re-analysis of the deposited data

How the results depend on the processing

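Of 82 calls of the 40 genes over the 3 comparisons, 59 kept their direction and side of the threshold under all 16 other settings: 24 of 30 with IL-1β, 26 of 32 in co-culture against IL-1β and 9 of 20 in co-culture against control. Of 1917 values recomputed, 77 lost a call and 26 gained one, and 2 turned direction, both after quantile normalization with IL-1β: Pgk1 to -0.0095 (adjusted p = 0.83) and Pgam1 to -0.15 (adjusted p = 0.00064). Another 24 changed sign without passing in either fit. A pseudocount of 0.1 changed no call. After quantile normalization the glycolysis genes in co-culture against control numbered 8 higher and 1 lower, and all tested genes 1008 higher and 1166 lower. The cause was not tested. The lower HIF targets in that comparison ranged from 0 to 1 on leaving out single libraries.

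With a replicate block 2 of the 120 values changed side, Egln2 with IL-1β (adjusted p = 0.035) and Gpi in co-culture against control (adjusted p = 0.059), and all genes called with IL-1β numbered 2329 higher and 3529 lower. The labels do not say that a replicate number is shared between groups. Same-numbered libraries had deviations from their group means that correlated at -0.046 to 0.189 (median 0.086) and others at -0.221 to 0.133 (median -0.008). Same-numbered libraries were thus slightly more alike, but not every library correlated best with its own number. The numbers were not treated as pairs. The depth is unknown, and the precision rests on 3 libraries per group.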
